A study of Mus musculus with 56 samples.

Results

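The comparison described here sets the hippocampus of chronically epileptic mice against that of naive mice, with every animal given vehicle only. It takes in 23 of the 56 arrays of the series, 1 array per mouse, chosen by their labels: 17 epileptic mice given vehicle and 6 naive mice given vehicle. All were male NMRI mice, an outbred strain, adult and over 12 weeks of age. The epileptic mice had received a single intraperitoneal injection of pilocarpine at 300 mg/kg, a muscarinic agonist that sets off status epilepticus (prolonged convulsive seizures), 30 min after N-methylscopolamine bromide at 1 mg/kg, a muscarinic blocker given to limit effects outside the brain. Diazepam at 10 mg/kg ended the status epilepticus after 3 h, and by the study's methods the animals were then screened for spontaneous recurrent seizures. The naive mice never received pilocarpine, and both groups were given vehicle daily by oral gavage, for 7 days by the sample labels and for 2 weeks by the series design text. The other 33 arrays come from epileptic mice given a drug. They took part in the normalization, the detection filter and the choice of probe, and in the model they served only to estimate the spread of each gene. Naive and epileptic mice therefore differ in the chemical treatment, in the seizures that followed and in everything that came after, and these cannot be told apart in this design.

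The hippocampus is built around a relay of excitatory neurons, from the granule cells of the dentate gyrus through the pyramidal cells of CA3 to those of CA1, held in check by GABAergic interneurons. In the pilocarpine model, as in human temporal lobe epilepsy, prolonged seizures kill part of the pyramidal cells and of the interneurons, the granule cells largely survive and sprout new axon branches, and astrocytes and microglia become reactive. Inhibitory peptides such as neuropeptide Y are known to appear in granule cells after seizures, and the genes that neurons switch on within minutes of firing are used as a record of recent activity.

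RNA was hybridised to Illumina MouseRef-8 v2 bead arrays. The median probe intensity ran from 119.54 to 150.05 in the naive mice and from 109.22 to 138.27 in the epileptic mice, and the share of probes detected above the negative controls from 45.07 to 49.79% and from 44.34 to 49.20%. Levels are given as quantile-normalised log2 intensity of the brightest probe of a gene, and a difference of 1 on this scale is a 2-fold change. Of 9893 genes tested with limma at an adjusted p under 0.05, 2232 (22.6%) were higher and 2619 (26.5%) lower in the epileptic mice; 382 (3.86%) were higher and 323 (3.26%) lower by at least 1.5-fold, and 5350 (54.1%) had an unadjusted p under 0.05. Scaling the arrays by their median instead gave 1291 higher and 3630 lower, and scaling by the 75th percentile gave 3849 and 2277. For 647 genes (6.54%) all 17 epileptic mice lay above all 6 naive mice, and for 851 (8.6%) all lay below. The median log2 fold change over all genes was -0.005. Submitter sample numbers fell into 2 runs, with 3 naive and 11 epileptic mice in the earlier run and 3 and 6 in the later one; within them 1698 and 1564 genes were higher and 2136 and 1811 lower. Epileptic replicate 6 stood apart: its median correlation with the other arrays of its group was 0.96975, against at least 0.98389 for every other epileptic mouse, and it was the highest or lowest of the 17 in 29.6% of genes, against 7.32 to 17.6% for the others. Where a value is said to depend on it, the value without it is given too.

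Genes were grouped in 53 lists of cell classes and pathways, and each is described by the number of members tested, the number higher and lower, and its median log2 fold change. Every such count is to be read against the shares over all genes, 22.6% higher and 26.5% lower. Counts without overlap are to be read against 6.54% higher and 8.6% lower. The level of a list in a mouse is the mean of its members' log2 intensities, set relative to the naive mean.

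**Figure D1:**
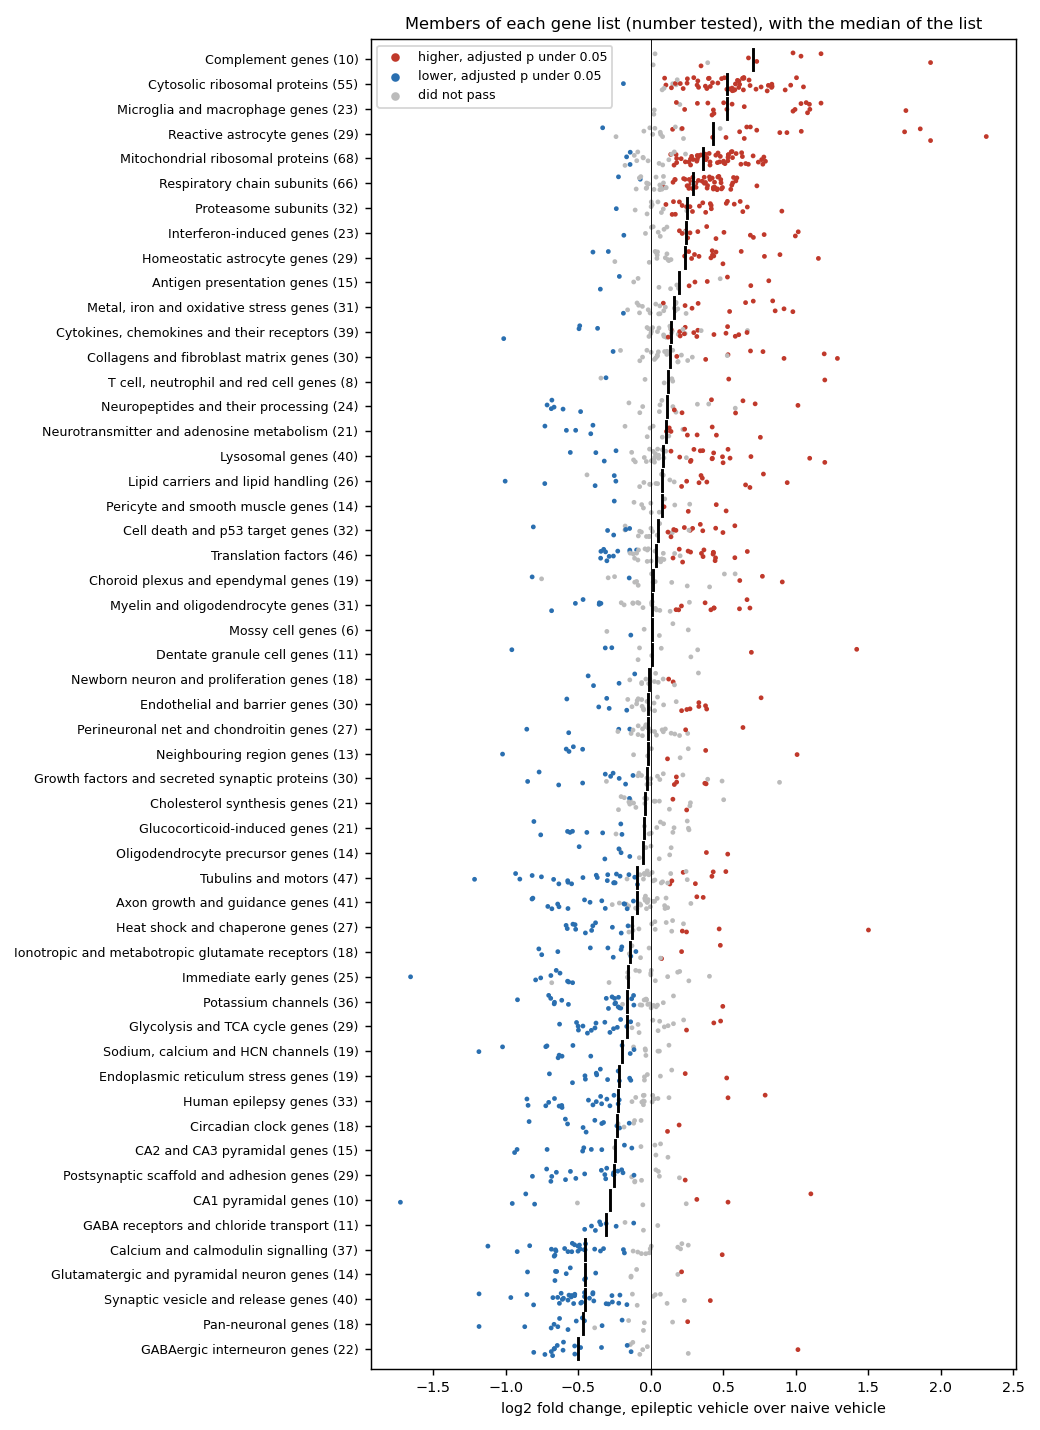
Log2 fold change of epileptic over naive vehicle mice (horizontal axis) for every tested member of the 53 gene lists, 1 point per gene, red where higher and blue where lower at an adjusted p under 0.05, grey where the test was not passed; the black bar is the list median and the number tested is in brackets. Complement, ribosomal protein, microglial and reactive astrocyte genes lie at the top with medians from 0.43 to 0.70, and interneuron, pan-neuronal, vesicle and glutamatergic genes at the bottom with medians from -0.50 to -0.45.

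Genes that mark neurons as a whole were lower in the epileptic hippocampus. Of 18 pan-neuronal genes tested, 12 were lower and 1 higher, where 26.5% of all genes were lower and 22.6% higher, with a median log2 fold change of -0.46 against -0.005 over all genes. The level of the list lay between -0.08 and 0.09 in the naive mice and between -0.51 and -0.31 in the epileptic mice, so that the groups did not overlap. Syt1, the calcium sensor of synaptic vesicle fusion, ran from 11.72 to 12.04 (median 11.86) in the naive mice and from 10.40 to 11.11 (median 10.62) in the epileptic mice. Every epileptic mouse was below every naive mouse, and the log2 fold change was -1.18 ± 0.12 (SE; limma, adjusted p = 3.55e-12). Rbfox3, which encodes the nuclear protein NeuN used to count neurons, fell by 0.64 ± 0.091 (adjusted p = 3.88e-08), from a naive median of 12.54 to 11.89, again without overlap. In bulk tissue, fewer cells of a type and less RNA per cell cannot be told apart. Snap25 had a probe that did not pass the detection filter, so it has no value here.

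Markers of excitatory neurons were lower as well. Of 14 genes shared by glutamatergic and pyramidal neurons, 9 were lower and 1 higher (median -0.45). Slc17a7, the transporter that loads glutamate into vesicles, ran from 12.06 to 12.41 in the naive mice (median 12.24) and from 11.44 to 12.03 in the epileptic mice (median 11.80), a log2 fold change of -0.46 ± 0.086 (adjusted p = 1.14e-05). The 2 groups were separate, although the highest epileptic and the lowest naive mouse were close.

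CA1 genes held the lowest well-separated fold change of the whole array. Fibcd1, a membrane receptor for acetylated sugars that is used as a CA1 marker, ran from 11.93 to 12.17 in the naive mice (median 12.05) and from 9.20 to 10.87 in the epileptic mice (median 10.35). All 17 epileptic mice were far below the naive range, while their own range was much wider than that of the naive mice. Pou3f1, a POU-domain transcription factor of CA1 cells, fell by 0.95 ± 0.16 (adjusted p = 9.52e-07) and Mpped1, a predicted phosphoesterase, fell by 0.86 ± 0.10 (adjusted p = 7.23e-10), both without overlap. Wfs1, an endoplasmic reticulum protein that labels dorsal CA1, was lower by 0.80 ± 0.16 (adjusted p = 2.68e-05) and below the naive range in 16 of 17 mice. The CA1 list did not move as one, however: of its 10 tested members, 4 were lower and 3 higher, or 5 and 1 with median scaling. Plekha2, a phosphoinositide-binding adaptor, ran from 9.21 to 9.32 (median 9.25) in the naive mice and from 9.84 to 11.26 (median 10.38) in the epileptic mice, a log2 fold change of 1.10 ± 0.16 (adjusted p = 9.82e-08) with no overlap. The CA1 list had a median of -0.28, or -0.22 without epileptic replicate 6, and its level was below the naive range in 14 of 17 epileptic mice.

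Genes of CA2 and CA3 pyramidal cells were lower or did not pass the test. Of 15 tested, 9 were lower and the other 6 did not pass (median -0.25). The level of the list was below the naive range in all 17 epileptic mice, at -0.65 to -0.10. Cpne4, a calcium-dependent membrane-binding protein, had the largest decline of the list, from 10.27 to 10.50 in the naive mice (median 10.38) to 8.18 to 10.15 in the epileptic mice (median 9.65), a log2 fold change of -0.94 ± 0.23 (adjusted p = 0.00043). Elavl2, a neuronal RNA-binding protein, fell by 0.92 ± 0.11 (adjusted p = 7.87e-10), and a further probe of the gene gave -0.86. The ranges of the groups were separate for both genes.

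Dentate granule cell genes went in both directions, in shares near those of all genes. Of 11 tested, 2 were higher (18.2%) and 3 lower (27.3%), beside 22.6% and 26.5% of all genes. The median was 0.007, against -0.005 over all genes. C1ql2, a secreted organiser of the synapses that granule cell axons (mossy fibres) make in CA3, ran from 10.26 to 10.70 in the naive mice (median 10.44) and from 10.98 to 12.45 in the epileptic mice (median 11.90). No mouse of one group reached the other, and the log2 fold change was 1.42 ± 0.15 (adjusted p = 1.83e-11), among the 12 highest on the array. Rasl10a, a small GTPase of the Ras family, was higher by 0.69 ± 0.11 (adjusted p = 5.46e-07), whereas Cygb, the oxygen-binding cytoglobin, was lower by 0.96 ± 0.15 (adjusted p = 1.77e-07). Prox1, the transcription factor that sets granule cell identity, did not pass, at 0.32 ± 0.17 (adjusted p = 0.101), although 11 of 17 epileptic mice were above the naive range; with only both compared groups in the model its adjusted p was 0.0438, and another probe gave -0.07. Of the 6 mossy cell genes tested 1 was lower (16.7%) and 5 did not pass. Of 18 genes of newborn neurons and proliferation 2 were higher (11.1%) and 4 lower (22.2%), or 9 and 3 with 75th percentile scaling.

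**Figure D2:**
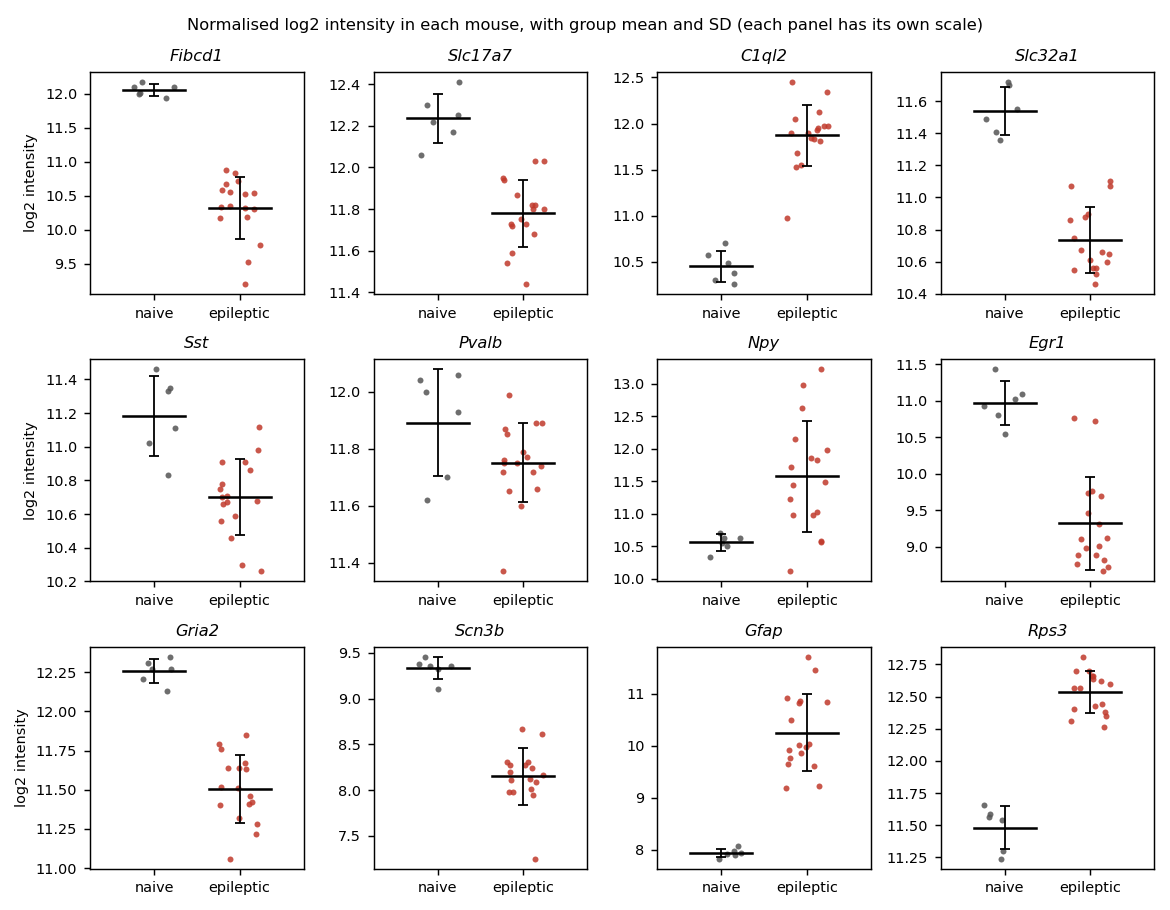
Normalised log2 intensity (vertical axis, own scale in each panel) of 12 genes in the 6 naive and 17 epileptic vehicle mice, 1 point per mouse, with group mean and SD. Fibcd1, Slc17a7, Slc32a1, Gria2 and Scn3b are lower and C1ql2, Gfap and Rps3 higher without overlap, whereas Pvalb, Sst, Npy and Egr1 overlap between groups.

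In the main model, interneuron genes had the lowest median of all 53 lists, -0.50. Of 22 tested, 15 were lower and 1 higher, and 10 were lower without overlap, as were 8.6% of all genes. The level of the list ran from -0.04 to 0.09 in the naive mice and from -0.49 to -0.27 in the epileptic mice. Slc32a1, the transporter that fills vesicles with GABA, ran from 11.37 to 11.72 in the naive mice (median 11.52) and from 10.46 to 11.10 in the epileptic mice (median 10.66). The log2 fold change was -0.81 ± 0.082 (adjusted p = 7.41e-12), with every epileptic mouse below the naive range. Gad1, which makes GABA from glutamate, fell by 0.73 ± 0.13 (adjusted p = 2.74e-06), and 16 of 17 epileptic mice were below the naive range. Reln, the secreted guidance protein of interneurons near the hippocampal fissure, was lower by 0.64 ± 0.098 (adjusted p = 1.82e-07). Kcnc1, the Kv3.1 potassium channel that lets interneurons fire fast, was lower by 0.66 ± 0.085 (adjusted p = 2.93e-09; -0.31 on another probe). These genes were separate between the groups except for Gad1.

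Markers of single interneuron classes differed in size. Sst, the peptide of dendrite-targeting interneurons, ran from 10.83 to 11.46 in the naive mice (median 11.22) and from 10.26 to 11.12 in the epileptic mice (median 10.70), a log2 fold change of -0.48 ± 0.12 (adjusted p = 0.000631). The ranges overlapped, and 12 of 17 epileptic mice were below all naive mice. Cort, the related peptide cortistatin, fell by 0.69 ± 0.078 (adjusted p = 1.71e-10), and Cck, the peptide of a class of basket cells that pyramidal cells also express, by 0.67 ± 0.098 (adjusted p = 9.39e-08), both without overlap. Pvalb, the calcium buffer of fast-spiking basket cells, did not pass, at -0.14 ± 0.075 (adjusted p = 0.121), with 2 of 17 epileptic mice below the naive range of 11.62 to 12.06. Without naive replicate 4 it was -0.20 (adjusted p = 0.0366), and in the earlier run alone -0.29 (adjusted p = 0.0277). No other alternative called it. Whether Pvalb differs from Sst or Slc32a1 in its response was not tested.

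**Figure D3:**
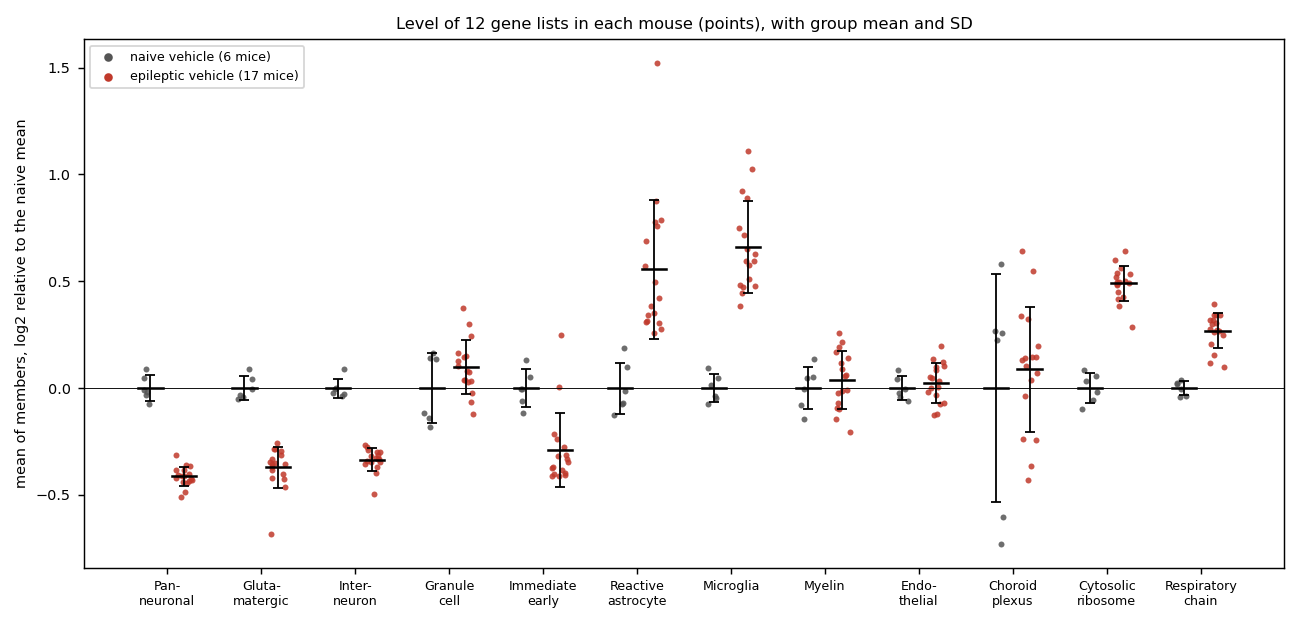
Level of 12 gene lists (vertical axis, mean of the members' log2 intensities relative to the naive mean) in each of the 6 naive and 17 epileptic vehicle mice, with group mean and SD. The pan-neuronal, glutamatergic and interneuron lists are below the naive range and the reactive astrocyte, microglial, ribosomal and respiratory chain lists above it in all epileptic mice, while the choroid plexus list varies from -0.73 to 0.58 among the naive mice alone; epileptic replicate 6 is the highest point of the reactive astrocyte list, at 1.52.

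Genes of neuropeptides and their processing were called in both directions, in shares near those of all genes. Of 24 tested, 7 were higher (29.2%) and 6 lower (25.0%), beside 22.6% and 26.5% of all genes. The median was 0.12, and median scaling gave 3 higher and 7 lower. Npy, an inhibitory peptide, ran from 10.33 to 10.70 in the naive mice (median 10.59) and from 10.11 to 13.22 in the epileptic mice (median 11.49). Of the epileptic mice, 14 were above the naive range and 1 below it, and the wide spread left a log2 fold change of 1.02 ± 0.40 (adjusted p = 0.029). Replicates 2, 6 and 10 were the highest, at 12.63 or above, and without replicate 6 Npy was at 0.91 (adjusted p = 0.0456). The call for Npy was lost without naive replicate 2 (0.97, adjusted p = 0.0586), with median scaling (0.89, adjusted p = 0.0612) and in each run alone. Pdyn, the precursor of the opioid peptide dynorphin of granule cells, was higher by 0.64 ± 0.26 (adjusted p = 0.0334), with 13 of 17 mice above the naive range; without epileptic replicate 6 it was 0.52 (adjusted p = 0.0524), and the call was also lost without naive replicate 2, 3, 4 or 6, with median scaling (0.44, adjusted p = 0.178), with averaged probes and with no detection filter. Another Pdyn probe gave 0.14. Grp, gastrin-releasing peptide, was higher by 0.72 ± 0.23 (adjusted p = 0.00783).

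Other secretory genes were lower. Chgb, a granin that packs peptides into dense core vesicles, ran from 11.82 to 12.35 in the naive mice (median 12.02) and from 10.77 to 11.95 in the epileptic mice (median 11.29), and 16 of 17 were below the naive range (log2 fold change -0.71 ± 0.16, adjusted p = 0.000158). Vgf, a secreted neuronal protein induced by activity, was lower by 0.68 ± 0.24 (adjusted p = 0.0143), with 14 mice below and 2 above the naive range. Sst and Chgb, both lower, carry the palindrome to which the activity-regulated factor CREB is known to bind, and their promoters are shown for it. The cAMP response motif TGACGTCA stood in 4 of 22 promoters of the list (18.2%), of which 2 belonged to genes called lower. The others belonged to Scg2 (log2 fold change 0.40) and Cartpt (0.32), which had the opposite sign and did not pass. The motif also stood in 1.79% of all 32851 mouse promoters of the table and 3.33% of those of tested genes. The sequences are from RefSeq on GRCm38.p6, each a window of 300 bases around the gene's start, most of it upstream, read along the gene's strand, with the motif in capitals. Sst lies on the minus strand at chr16:23890795-23891094 and Chgb on the plus strand at chr2:132781392-132781691.
Sst: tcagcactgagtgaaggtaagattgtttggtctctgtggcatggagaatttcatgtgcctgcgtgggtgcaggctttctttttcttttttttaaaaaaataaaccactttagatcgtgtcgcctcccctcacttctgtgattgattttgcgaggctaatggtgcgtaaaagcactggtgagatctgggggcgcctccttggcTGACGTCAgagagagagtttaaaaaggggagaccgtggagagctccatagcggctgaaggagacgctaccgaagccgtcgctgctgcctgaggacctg
Chgb: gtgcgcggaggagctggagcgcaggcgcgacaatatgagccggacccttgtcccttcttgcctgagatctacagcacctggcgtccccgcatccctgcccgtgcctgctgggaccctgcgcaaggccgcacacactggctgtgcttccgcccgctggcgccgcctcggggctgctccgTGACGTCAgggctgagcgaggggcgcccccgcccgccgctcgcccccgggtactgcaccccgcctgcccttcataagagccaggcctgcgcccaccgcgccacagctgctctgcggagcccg
A match is a description of the letters and no evidence of binding.

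Genes induced by neuronal firing were lower or did not pass. Of 25 immediate early genes tested, 9 were lower (36.0%, beside 26.5% of all genes) and 16 did not pass (median -0.16). Egr1, a transcription factor that follows neuronal activity, ran from 10.54 to 11.43 in the naive mice (median 10.98) and from 8.66 to 10.76 in the epileptic mice (median 9.11), a log2 fold change of -1.66 ± 0.31 (adjusted p = 9.71e-06). Below the naive range were 15 of the 17 epileptic mice, and 2 lay within it. Homer1, a postsynaptic scaffold with an activity-induced short form, fell by 0.69 ± 0.097 (adjusted p = 3.42e-08; -0.73 and -0.07 on 2 other probes) and Nr4a2, an orphan nuclear receptor, by 0.65 ± 0.10 (adjusted p = 4.28e-07). The phosphatases that shut off MAP kinase signalling were also lower, Dusp6 by 0.79 ± 0.18 (adjusted p = 0.000251; -0.13 and -0.18 on 2 other probes) and Dusp1 by 0.76 ± 0.15 (adjusted p = 2.04e-05). Fos, chosen after its values were seen because it is the most used gene of this class, gave -0.16 ± 0.22 (adjusted p = 0.588). The level of the list separated the epileptic mice among themselves: 15 lay between -0.41 and -0.21, below all naive mice at -0.12 to 0.13, whereas replicate 2 was at 0.007 and replicate 6 at 0.25. Without replicate 6, 9 members were lower too. The time between the last seizure and the removal of the tissue is in none of the sources used here.

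Presynaptic genes were lower in most members. Of 40 synaptic vesicle and release genes, 32 were lower and 1 higher (median -0.46), and 16 were lower without overlap, as were 8.6% of all genes. Syn1, which tethers vesicles in reserve, ran from 12.74 to 13.09 in the naive mice (median 12.92) and from 11.88 to 12.23 in the epileptic mice (median 12.05), a log2 fold change of -0.85 ± 0.086 (adjusted p = 6.42e-12). Sv2a, a vesicle protein and the binding site of the antiseizure drug levetiracetam, fell by 0.96 ± 0.11 (adjusted p = 3.2e-10), and another probe of it gave -1. Nsf, the ATPase that recycles the fusion machinery, fell by 0.81 ± 0.068 (adjusted p = 5.02e-14). For all 3 genes every epileptic mouse was below every naive mouse.

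On the receiving side, 10 of 18 glutamate receptor genes were lower and 3 higher (median -0.14). Gria2, the subunit that makes AMPA receptors impermeable to calcium, ran from 12.13 to 12.35 in the naive mice (median 12.27) and from 11.06 to 11.85 in the epileptic mice (median 11.51), a log2 fold change of -0.75 ± 0.082 (adjusted p = 5.59e-11). Gria1 was lower by 0.77 ± 0.12 (adjusted p = 2.73e-07) and Neto1, an auxiliary subunit of kainate receptors, by 0.64 ± 0.091 (adjusted p = 3.86e-08). The ranges did not overlap for any of these. Of 29 postsynaptic scaffold and adhesion genes 20 were lower and 1 higher (median -0.26), led by Dlg3, the scaffold SAP102, at -0.82 ± 0.086 (adjusted p = 1.89e-11). Of the inhibitory synapse, 8 of 11 genes of GABA receptors and chloride transport were lower and 3 did not pass (median -0.31), and every fold change was under 1.5. Gabrb1, a GABA-A receptor subunit, fell by 0.31 ± 0.096 (adjusted p = 0.00634), Gphn, the scaffold gephyrin, by 0.38 ± 0.063 (adjusted p = 9e-07), and Nlgn2, the adhesion protein of inhibitory synapses, by 0.46 ± 0.079 (adjusted p = 2.45e-06). Whether inhibitory and excitatory synapse genes differed in size was not tested.

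Ion channels were lower in most of the members that passed. Of 19 sodium, calcium and HCN channel genes 12 were lower and 7 did not pass (median -0.20), 9 without overlap, and of 36 potassium channel genes 20 were lower and 1 higher (median -0.16). Scn3b, an auxiliary sodium channel subunit, ran from 9.11 to 9.46 in the naive mice (median 9.36) and from 7.25 to 8.67 in the epileptic mice (median 8.16), a log2 fold change of -1.18 ± 0.13 (adjusted p = 2.58e-11), while a weaker probe of the gene gave -0.27. Scn1a, the sodium channel mutated in Dravet syndrome, fell by 0.72 ± 0.11 (adjusted p = 1.28e-07) and Scn8a, the channel of the axon initial segment, by 0.63 ± 0.064 (adjusted p = 7.39e-12). Scn4b, a further auxiliary subunit, fell by 1.02 ± 0.14 (adjusted p = 2.37e-08). All 17 epileptic mice were below the naive range for these 4 genes. Kcnd2, the Kv4.2 channel that dampens dendrites, was lower by 0.92 ± 0.13 (adjusted p = 2.09e-08) and Kcna2, an axonal channel, by 0.70 ± 0.075 (adjusted p = 2.68e-11).

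Calcium handling and cell architecture added further declines. Of 37 calcium and calmodulin signalling genes 25 were lower and 1 higher (median -0.45), and 18 were lower without overlap, as were 8.6% of all genes. Prkcb, protein kinase C beta, ran from 12.35 to 12.67 in the naive mice (median 12.54) and from 11.07 to 11.85 in the epileptic mice (median 11.60), a log2 fold change of -0.92 ± 0.11 (adjusted p = 1.07e-09). Atp2b1, the pump that removes calcium from the cell, was lower by 1.12 ± 0.12 (adjusted p = 2.63e-11). Both were without overlap. Of 47 tubulin and motor genes 23 were lower (48.9%) and 7 higher (14.9%), with a median of -0.09. Of 41 axon growth and guidance genes 15 were lower (36.6%) and 2 higher (4.9%), also with a median of -0.09. Among all genes 26.5% were lower and 22.6% higher. The lowest fold changes of the array also included Pip5k1b, a lipid kinase (-1.32 ± 0.11, adjusted p = 9.56e-14), Celsr2, a cadherin of planar polarity (-1.21 ± 0.11, adjusted p = 2.12e-13), and Ppm1e, a phosphatase that acts on calmodulin kinases (-1.21 ± 0.10, adjusted p = 5.02e-14). Epb41l3, a cytoskeletal linker, gave -1.11 ± 0.11 (adjusted p = 1.08e-12) on the probe used and -0.25 and -0.34 on 2 others, and Map1b, a microtubule protein, gave -1.21 ± 0.14 (adjusted p = 2.08e-10) on the probe used and -0.33, -0.08 and -0.45 on 3 others. For these the size depends on the probe.

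Genes in which mutations cause epilepsy in people were lower more often than higher, 18 against 2 of 33 tested (median -0.22), beside 26.5% and 22.6% of all genes. The lowest log2 fold change on the list was -0.85, and Scn3b, Scn4b and Kcnd2 above, which were lower still, are not members. Cstb, cystatin B, a protease inhibitor whose loss causes a progressive myoclonus epilepsy, went the other way. It ran from 11.04 to 11.20 in the naive mice (median 11.15) and from 11.61 to 12.31 in the epileptic mice (median 11.86), without overlap, a log2 fold change of 0.79 ± 0.11 (adjusted p = 2.64e-08).

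Astrocyte genes were higher in the lists of both the reactive and the resting cell. Of 29 reactive astrocyte genes 16 were higher and 1 lower (median 0.43), and of 29 homeostatic astrocyte genes 15 were higher and 2 lower (median 0.23; with median scaling 8 and 3, median 0.12); whether the lists differ was not tested. Gfap, the intermediate filament that defines reactive astrocytes, ran from 7.83 to 8.08 in the naive mice (median 7.92) and from 9.19 to 11.71 in the epileptic mice (median 10.02). Vim, a second filament protein, ran from 7.96 to 8.65 (median 8.30) and from 8.96 to 12.00 (median 9.89), a log2 fold change of 1.75 ± 0.30 (adjusted p = 2.47e-06). S100a6, a calcium-binding protein, was higher by 1.86 ± 0.18 (adjusted p = 3.32e-12), and these 3 genes did not overlap. Timp1, an inhibitor of matrix proteases, was called at 1.04 ± 0.37 (adjusted p = 0.0175) with 14 of 17 mice above the naive range, but epileptic replicate 6 was alone at 11.07 and the others at 9.20 or below; without it Timp1 was at 0.85 (adjusted p = 0.0237). The level of the reactive list ran from 0.26 to 1.52 in the epileptic mice with replicate 6 the highest; without it the median was 0.37 and 15 genes were higher.

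Among the genes of resting astrocytes, Ppp1r3c, a subunit that directs glycogen synthesis, ran from 10.88 to 11.06 in the naive mice (median 10.99) and from 11.67 to 12.69 in the epileptic mice (median 12.11), a log2 fold change of 1.16 ± 0.15 (adjusted p = 3.15e-09) without overlap. Aqp4, the water channel of astrocyte endfeet, was higher by 0.78 ± 0.18 (adjusted p = 0.000221), with 14 mice above and 1 below the naive range. Ndrg2 was higher by 0.89 ± 0.14 (adjusted p = 3.41e-07). The glutamate transporters moved less. Slc1a2 (GLT-1) was higher by 0.42 ± 0.14 (adjusted p = 0.00708), a call that median scaling removed (0.20 and -0.00 on 2 other probes), and Slc1a3 (GLAST) did not pass, at 0.13 ± 0.062 (adjusted p = 0.091), although both other scalings called it higher.

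Oligodendrocyte genes showed no common direction. Of 31 myelin and oligodendrocyte genes 10 were higher and 6 lower, and their median of 0.01 changed sign with median scaling (-0.085; 5 higher and 10 lower). Mbp, myelin basic protein, was at 0.19 ± 0.064 (adjusted p = 0.0102; -0.11 and 0.74 on 2 other probes, and not called in either run alone), Mag, an adhesion protein of myelin, at 0.13 ± 0.12 (adjusted p = 0.386) and Mog, a surface protein of myelin, at -0.18 ± 0.11 (adjusted p = 0.186; -0.37 with median scaling, adjusted p = 0.00533). Within this list Fa2h, the enzyme that makes hydroxylated myelin lipids, was lower by 0.68 ± 0.10 (adjusted p = 1.52e-07) and Plekhb1, a membrane-bound protein, higher by 0.61 ± 0.088 (adjusted p = 5.57e-08), both without overlap. Precursor genes were lower in 5 and higher in 2 of 14 tested, with Pdgfra, the growth factor receptor of these cells, ranging from 8.42 to 8.78 in the naive mice and from 8.02 to 8.60 in the epileptic mice (log2 fold change -0.32 ± 0.063, adjusted p = 2.71e-05).

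Vascular genes went both ways in small steps. Of 30 endothelial and barrier genes 8 were higher (26.7%) and 5 lower (16.7%), with a median of -0.02. Median scaling gave 2 higher and 10 lower, and 75th percentile scaling 12 and 5 (median 0.11). Of 14 pericyte and smooth muscle genes 4 were higher (28.6%) and 1 lower (7.1%). Among all genes 22.6% were higher and 26.5% lower. Pecam1, which marks endothelium, was at 0.02 ± 0.047 (adjusted p = 0.716), and Pdgfrb, which marks pericytes, at -0.06 ± 0.039 (adjusted p = 0.197). Palmd, a membrane-associated protein on the endothelial list, was lower by 0.58 ± 0.077 (adjusted p = 7.01e-09). Of 30 matrix genes 8 were higher (26.7%, near the 22.6% of all genes) and 1 lower, with 5 higher without naive replicate 1 and 5 with median scaling. Bgn, the proteoglycan biglycan, ran from 8.97 to 10.05 in the naive mice (median 9.22) and from 9.66 to 12.40 in the epileptic mice (median 10.73), a log2 fold change of 1.29 ± 0.30 (adjusted p = 0.000294). The ranges overlapped, with 14 of 17 epileptic mice above. Col6a1, a collagen VI chain, was higher without overlap (0.92 ± 0.16, adjusted p = 3.69e-06). Hapln4, which links perineuronal nets at inhibitory synapses, was lower by 0.85 ± 0.17 (adjusted p = 1.95e-05), also without overlap, on a list with 2 higher and 4 lower of 27 (2 and 9 with median scaling).

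Markers of tissue next to the hippocampus varied between mice. The level of the 19 choroid plexus and ependymal genes ran from -0.73 to 0.58 in the naive mice and from -0.43 to 0.64 in the epileptic mice. Ttr, transthyretin, the most abundant choroid plexus transcript, ran from 8.83 to 14.16 in the naive mice and from 10.66 to 13.90 in the epileptic mice (0.58 ± 0.60, adjusted p = 0.453). Of genes of the striatum, thalamus and cortex, 3 were higher (23.1%) and 5 lower (38.5%) of 13 tested, beside 22.6% and 26.5% of all genes. Drd1, the D1 dopamine receptor, which granule cells also express, ran from 7.28 to 7.64 in the naive mice (median 7.47) and from 8.00 to 9.30 in the epileptic mice (median 8.50), without overlap (1.01 ± 0.14, adjusted p = 1.01e-08). Another striatal marker, Ppp1r1b, was higher by 0.38 ± 0.11 (adjusted p = 0.00244), a call lost with median scaling, and 2 other probes both gave 0.06. The thalamic marker Prkcd was lower by 0.53 ± 0.19 (adjusted p = 0.0179), but not without naive replicate 3 (-0.42, adjusted p = 0.0843), and the thalamic marker Tcf7l2 was at -0.02 ± 0.16 (adjusted p = 0.928). The part of neighbouring tissue in the other results was not tested. Few blood cell genes passed the filter. Of 8 genes of T cells, neutrophils and red cells 2 were higher and 1 lower; Cd52, a lymphocyte and myeloid surface antigen, was higher by 1.2 ± 0.17 (adjusted p = 3.35e-08), and the T cell markers Cd3e and Cd3d did not pass the detection filter.

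Microglial genes were higher in 20 of 23 tested, and 3 did not pass (median 0.53), 14 higher without overlap, as were 6.54% of all genes. Aif1, which encodes the microglial protein Iba1, ran from 7.78 to 8.22 in the naive mice (median 8.05) and from 8.53 to 9.55 in the epileptic mice (median 9.05), a log2 fold change of 1.00 ± 0.11 (adjusted p = 1.28e-10). Cyba, a subunit of the phagocyte oxidase and one of the 12 highest genes, was higher by 1.44 ± 0.11 (adjusted p = 1.02e-14), without overlap. Cx3cr1, the fractalkine receptor of resting microglia, was higher by 0.44 ± 0.094 (adjusted p = 9.65e-05), but not with median scaling. Its ligand Cx3cl1, which neurons make, ran from 11.90 to 12.07 in the naive mice (median 11.98) and from 10.61 to 11.33 in the epileptic mice (median 10.96). The groups did not overlap, and the log2 fold change was -1.01 ± 0.094 (adjusted p = 6.08e-13).

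Complement was the list with the highest median, 0.70. Of 10 genes 7 were higher and 3 did not pass. C4b, a component of the classical pathway, ran from 8.06 to 8.82 in the naive mice (median 8.45) and from 9.53 to 11.59 in the epileptic mice (median 10.23), a log2 fold change of 1.93 ± 0.22 (adjusted p = 2.28e-10). C1qb, a chain of the initiating C1q complex, was higher by 1.17 ± 0.16 (adjusted p = 2.19e-08). Both were without overlap. Of 39 cytokines, chemokines and their receptors 15 were higher and 4 lower (median 0.14). Cxcl14, a chemokine, was higher by 0.61 ± 0.079 (adjusted p = 4.16e-09) and Ccl12, a monocyte chemokine, by 0.66 ± 0.25 (adjusted p = 0.0252), the latter with epileptic replicate 6 at 9.91; without it Ccl12 was at 0.52 (adjusted p = 0.0316).

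Interferon-induced and antigen presentation genes were higher to a smaller extent. Of 23 interferon-induced genes 14 were higher and 1 lower (median 0.24), and of 15 antigen presentation genes 6 were higher and 2 lower (median 0.19). Ifitm3, which blocks viral entry, ran from 8.71 to 9.53 in the naive mice (median 8.97) and from 9.23 to 11.10 in the epileptic mice (median 10.00), with 15 of 17 above the naive range (1.02 ± 0.19, adjusted p = 7.5e-06). Irgm1, an interferon-induced GTPase, was higher by 0.71 ± 0.14 (adjusted p = 2.86e-05), also above the range in 15 of 17, while another probe gave 0.16. B2m, the light chain of MHC class I, was higher by 0.69 ± 0.12 (adjusted p = 2.14e-06) without overlap, and H2-Ab1, an MHC class II chain, by 0.81 ± 0.22 (adjusted p = 0.00137), above the range in 12 of 17, with 0.26, 0.09 and 0.26 on 3 other probes. The letters of the interferon response element, GAAA and GAAA with any 2 bases between them on either strand, were found in 11 of 20 promoters of the list (55%), 8 of them of genes called higher and 1 of a gene called lower, against 3.44% of all promoters and 3.57% of those of tested genes. The promoters of Irgm1 and Ifitm3 are shown because each holds the motif more than once, near the start of the gene. They lie on the minus strand at chr11:48871371-48871670 and chr7:141010695-141010994 (RefSeq, GRCm38.p6). Capitals mark the motif, and in Irgm1 the matches overlap.
Irgm1: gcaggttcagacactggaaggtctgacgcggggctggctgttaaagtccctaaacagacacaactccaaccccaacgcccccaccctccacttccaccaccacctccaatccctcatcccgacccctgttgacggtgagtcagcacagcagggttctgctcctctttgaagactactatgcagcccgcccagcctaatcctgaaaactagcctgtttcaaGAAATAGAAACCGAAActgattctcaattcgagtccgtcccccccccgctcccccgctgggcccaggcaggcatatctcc
Ifitm3: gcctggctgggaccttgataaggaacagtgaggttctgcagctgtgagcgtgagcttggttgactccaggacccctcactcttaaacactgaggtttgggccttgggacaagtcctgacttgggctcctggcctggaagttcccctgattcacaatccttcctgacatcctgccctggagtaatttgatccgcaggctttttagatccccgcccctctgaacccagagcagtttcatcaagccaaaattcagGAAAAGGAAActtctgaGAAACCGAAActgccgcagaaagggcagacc
The motif was searched in letters only, and no binding was measured.

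Genes of protein folding were called lower more often than higher. Of 27 heat shock and chaperone genes 12 were lower and 4 higher (median -0.13), and of 19 endoplasmic reticulum stress genes 12 were lower and 2 higher (median -0.22). Stip1, which hands clients from HSP70 to HSP90, ran from 10.54 to 10.89 in the naive mice (median 10.73) and from 9.82 to 10.39 in the epileptic mice (median 10.28), a log2 fold change of -0.52 ± 0.057 (adjusted p = 5.65e-11) without overlap. Hsph1 (HSP110) fell by 0.54 ± 0.10 (adjusted p = 1.08e-05), and Hspd1, the mitochondrial chaperonin HSP60, by 0.58 ± 0.12 (adjusted p = 6.5e-05). Xbp1, the transcription factor of the unfolded protein response, fell by 0.70 ± 0.13 (adjusted p = 1.53e-05). Hsp90b1, the HSP90 of the endoplasmic reticulum, fell by 0.58 ± 0.10 (adjusted p = 3.9e-06). Among the members called higher was the small heat shock protein Hspb6, which ran from 8.80 to 9.47 in the naive mice (median 9.15) and from 9.71 to 12.37 in the epileptic mice (median 10.38), a log2 fold change of 1.5 ± 0.30 (adjusted p = 2.57e-05) with no overlap. Epileptic replicates 2 and 6 were the highest, above 12, and without replicate 6 Hspb6 was at 1.39 (adjusted p = 3.1e-05). The heat shock motif, GAA, TTC and GAA in a row with any 2 bases between neighbours on either strand, stood in 4 of 22 promoters of the list (18.2%), 3 of them of genes called lower, against 0.603% of all promoters. Hspd1 is shown because 2 such matches overlap in it, on opposite strands; the promoter, 1 of 2 listed for the gene, lies on the minus strand at chr1:55087883-55088182 (RefSeq, GRCm38.p6), with the matches in capitals.
Hspd1: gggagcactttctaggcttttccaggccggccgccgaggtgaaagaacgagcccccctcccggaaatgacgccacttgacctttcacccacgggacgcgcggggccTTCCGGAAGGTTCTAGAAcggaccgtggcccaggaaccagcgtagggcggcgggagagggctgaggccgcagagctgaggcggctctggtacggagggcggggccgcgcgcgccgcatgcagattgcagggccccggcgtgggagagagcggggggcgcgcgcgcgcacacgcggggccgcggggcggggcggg
Here too the match describes the sequence only.

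Metal and oxidative defence genes were higher in 11 and lower in 1 of 31 (median 0.16). Gpx1, glutathione peroxidase, ran from 11.04 to 11.34 in the naive mice (median 11.20) and from 11.93 to 12.41 in the epileptic mice (median 12.12), a log2 fold change of 0.92 ± 0.076 (adjusted p = 3.88e-14) without overlap. Mgst1, a microsomal glutathione transferase, was higher by 0.98 ± 0.12 (adjusted p = 2.44e-09; 0.32 on another probe) and Mt3, the metallothionein of the brain, by 0.86 ± 0.17 (adjusted p = 2.72e-05). Of 32 cell death and p53 target genes 12 were higher and 5 lower, a balance that median scaling turned to 8 and 10. Casp9, the initiator of the mitochondrial death pathway, was lower by 0.81 ± 0.24 (adjusted p = 0.00361), while Casp1, the inflammasome caspase, was higher by 0.58 ± 0.15 (adjusted p = 0.00101).

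Clock genes were lower in 11 and higher in 2 of 18 tested (median -0.23), and the level of the list was below the naive range in all 17 epileptic mice. Per2, a repressor of the clock, ran from 8.90 to 9.39 in the naive mice (median 9.07) and from 7.85 to 8.63 in the epileptic mice (median 8.29), a log2 fold change of -0.84 ± 0.14 (adjusted p = 1.42e-06). Per1 fell by 0.57 ± 0.089 (adjusted p = 2.65e-07) and Cry2 fell by 0.45 ± 0.049 (adjusted p = 6e-11), all without overlap. No source used here gives the hour at which the tissue was taken. Glucocorticoid-induced genes were lower in 9 of 21, and 12 did not pass (median -0.04), among them Bcl6, a transcriptional repressor, by 0.81 ± 0.12 (adjusted p = 4.19e-08), Klf9, a transcription factor, by 0.54 ± 0.090 (adjusted p = 1.17e-06) and Fkbp5, a chaperone of the glucocorticoid receptor, by 0.33 ± 0.089 (adjusted p = 0.00157). Naive replicate 3 had the highest level of this list, 0.34, while the other naive mice lay between -0.07 and -0.06; without it 3 members were called higher.

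Lipid and lysosomal genes were mixed. Of 26 lipid carrier and handling genes 10 were higher and 5 lower (median 0.08), or 7 and 8 with median scaling, with Apoe, the lipid carrier of astrocytes and microglia, higher by 0.65 ± 0.12 (adjusted p = 1.22e-05) and Lpl, the lipase of lipoproteins, lower by 1.00 ± 0.21 (adjusted p = 4.49e-05), both without overlap. Of 40 lysosomal genes 17 were higher and 4 lower (median 0.09), or 11 and 8 with median scaling. Ctsh, a lysosomal protease, ran from 8.40 to 8.87 in the naive mice (median 8.56) and from 9.42 to 10.29 in the epileptic mice (median 9.65), a log2 fold change of 1.2 ± 0.13 (adjusted p = 1.22e-11). Cd63, a tetraspanin of late endosomes, was higher by 1.10 ± 0.16 (adjusted p = 5.57e-08), and 2 other probes gave 1.02 and 1. Neither overlapped between groups.

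Genes of protein synthesis and of respiration were higher in most members. Of 55 cytosolic ribosomal protein genes 49 were higher and 1 lower (median 0.53), 30 without overlap; of 68 mitochondrial ribosomal protein genes 52 were higher and 3 lower (median 0.36); and of 66 respiratory chain subunits 45 were higher and 2 lower (median 0.29). Rps3, a protein of the small ribosomal subunit, ran from 11.24 to 11.66 in the naive mice (median 11.55) and from 12.26 to 12.81 in the epileptic mice (median 12.57), a log2 fold change of 1.05 ± 0.096 (adjusted p = 3.94e-13). Rpl34, of the large subunit, was higher by 0.84 ± 0.072 (adjusted p = 9.56e-14), Mrpl17, of the mitochondrial ribosome, by 0.71 ± 0.069 (adjusted p = 2.31e-12), and Ndufa7, of respiratory complex I, by 0.73 ± 0.093 (adjusted p = 2.77e-09), all without overlap. Median scaling left the medians of these 3 lists at 0.51, 0.19 and 0.25, with 47, 35 and 38 genes higher. Ribosomal protein genes have many near-identical pseudogenes, which the probes may not separate. Proteasome subunits were higher in 22 and lower in 1 of 32 (median 0.25; 12 higher with median scaling). Translation factors were mixed, with 15 higher and 11 lower of 46, or 9 and 17 with median scaling.

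Glycolysis and citric acid cycle genes were lower in 16 and higher in 3 of 29 (median -0.17), the opposite side from the respiratory chain. Eno2, the neuronal enolase, ran from 13.66 to 13.96 in the naive mice (median 13.80) and from 12.95 to 13.44 in the epileptic mice (median 13.22), a log2 fold change of -0.63 ± 0.071 (adjusted p = 1.39e-10). Pkm, pyruvate kinase, fell by 0.51 ± 0.080 (adjusted p = 3.56e-07). Both were without overlap.

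The direction of change was also ordered by the length of the gene. The median genomic length was 12.4 kb for genes called higher, 36.9 kb for genes called lower and 19.9 kb for those not called. The 9892 genes with a length were split into 5 bins of equal number. In the shortest bin (up to 6.99 kb) 36.3% were higher and 11.8% lower, and in the longest (from 64.4 kb) 10.2% were higher and 44.6% lower, with the bins between in order. By at least 1.5-fold, 170 genes of the shortest bin were higher and 26 lower, against 24 and 159 of the longest. Length and function are tied here: the median length was 3.55 kb for cytosolic ribosomal proteins and 7.39 kb for respiratory chain subunits, against 117 kb for glutamate receptors, 147 kb for axon guidance genes and 170 kb for sodium, calcium and HCN channels. The part of either in the other was not tested. Immediate early genes, lower in 9 of 25, had a median length of 4.26 kb.

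**Figure D4:**
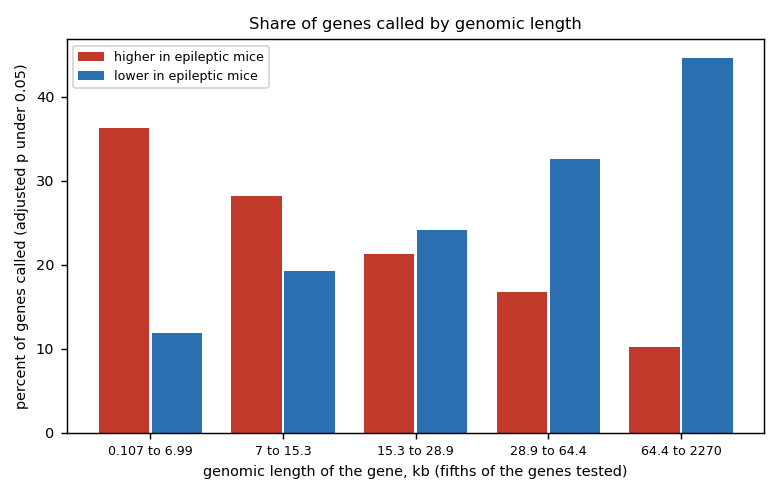
Percent of genes called higher (red) and lower (blue) in epileptic vehicle mice at an adjusted p under 0.05 (vertical axis) in 5 bins of genomic length in kb (horizontal axis). The share higher goes from 36.3% in the shortest bin to 10.2% in the longest, and the share lower from 11.8% to 44.6%.

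Among the 17 epileptic mice, the astrocyte marker Gfap and the CA1 marker Fibcd1 varied in opposite directions. Gfap and Fibcd1 had a Pearson correlation of -0.84 (permutation p = 4e-05, adjusted over 3 relations 0.00012) and a Spearman correlation of -0.84 (permutation p = 0.00014, adjusted 0.00042), both two-sided. Without replicates 2 and 6, the mice farthest from the median of Gfap, r was -0.72; it was -0.86 in the 11 mice of the earlier run and -0.54 in the 6 of the later one. Gfap was not related in this way to the interneuron transporter Slc32a1 (r = -0.01, permutation p = 0.983, adjusted 0.983; rho = 0.06, permutation p = 0.83, adjusted 0.83), and the microglial Aif1 gave r = 0.29 (permutation p = 0.248, adjusted 0.372; rho = 0.25, permutation p = 0.321, adjusted 0.482). Leaving out the same mice gave -0.08 for Slc32a1 and 0.17 for Aif1, and the runs gave -0.15 and 0.53, and 0.18 and 0.66. Whether the 3 correlations differ was not tested. The adjustment covers these 3 relations and not the choice of these genes among all those measured. Fibcd1 was the only CA1 gene tested against Gfap, and CA1 genes as a class were not tested. Epileptic replicate 6, the highest for Gfap at 11.71, was also the highest for Wfs1 (10.38) and Plekha2 (11.26), and their relation to Gfap was not tested.

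**Figure D5:**
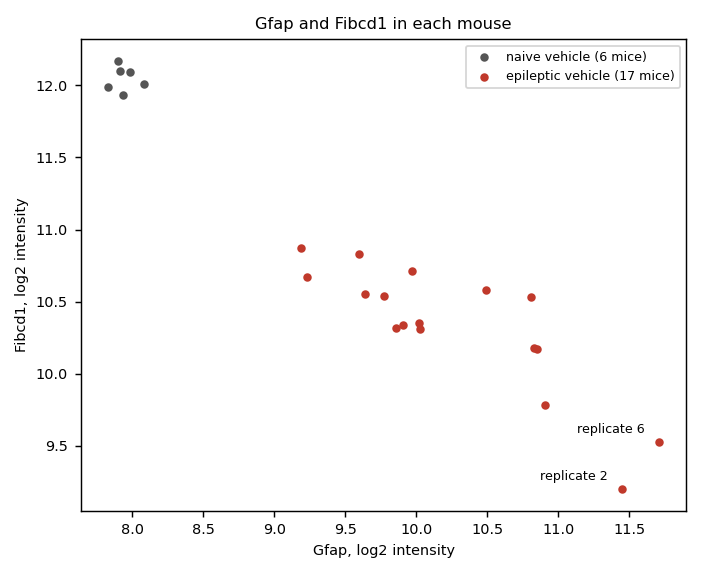
Normalised log2 intensity of Gfap (horizontal axis) and Fibcd1 (vertical axis) in the 6 naive and 17 epileptic vehicle mice, 1 point per mouse. Within the epileptic mice Fibcd1 is lower where Gfap is higher (r = -0.84), with replicates 2 and 6 at the far end; the naive mice form a separate cluster and are not in the correlation.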

How the data were processed

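RNA of the hippocampus of 56 mice was hybridised to Illumina MouseRef-8 v2 arrays, 1 array each, and the 17 epileptic and 6 naive mice given vehicle were compared. The authors deposited probe intensity extracted with GenomeStudio 2011.1 without normalization, each with a detection p-value against negative controls. They also deposited log2 values made with lumi (log2 transformation and quantile normalization; no version is stated), which served as an alternative. Of 25697 probes, 23978 were named with 1 gene through the platform annotation and a RefSeq table of GRCm38.p6, and 1719 were unnamed here. Here, intensities were log2 transformed and quantile normalized over all 56 arrays without background correction; a probe was kept if its detection p was below 0.05 on 6 or more arrays (14058 probes, 13265 of them with a gene), and the brightest probe stood for a gene, which left 9893 genes. The contrast was fitted in limma 3.58.1 (R 4.3.3; group means, all 4 groups in 1 model, no covariates, Benjamini-Hochberg adjustment, threshold 0.05). SEs come from the moderated variance of that model.

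The labels name each mouse as a separate sample and give no litter or cage, so p-values measure the spread between these mice. The number of arrays limits the precision. On simulated data with 9893 genes, the model called 24 of 50 genes given a log2 change of 0.2 and 47 of 50 given 0.4. It called 48 of 50 given 0.8 and 50 of 50 given 1.2, with 8 false calls. Only 50 genes were changed at each size, whereas 49% of genes were called in the data. The adjustment is stricter where few genes change, so these rates do not give the recovery in the real comparison.

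The members of the 53 lists, and the comparison itself, were chosen with earlier results of these data known. Named genes were the 12 highest and 12 lowest log2 fold changes past the threshold, up to 8 members of largest absolute change past the threshold in each list, and defining markers of a cell class whether or not they passed. Alternatives were normexp background correction (offset 50), the authors' log2 values, median and 75th percentile scaling, no detection filter and a stricter one (p below 0.01 on 28 or more arrays), averaging a gene's probes, array quality weights, the runs of submitter numbers (up to 24, from 33) and sets of 8 numbers as blocks, the replicate number as a block, only both compared groups in the model, each run alone, eBayes with trend and robust options, and leaving out each mouse. Correlations across mice used 2-sided permutation tests with 100000 resamples. Promoters are RefSeq windows, searched on both strands. Zbtb20, Cldn5 and Adora2a were not analysed here.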

Additional observations from a re-analysis of the deposited data

Results flagged for a closer look

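In the group of 6 naive mice, a mouse was picked out where its gap to the nearest other mouse, divided by the range of the group (Dixon's ratio), passed the critical value for 6 samples. This was examined for 150 genes and 53 list levels, and 11 cases were found; chance flags about 1 in 20 groups, and genes of one list are not independent.

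Rpl29, a ribosomal protein, had 1 naive mouse (replicate 5) at 10.92 with the other 5 between 8.77 and 8.82 (ratio 0.976). The epileptic mice also fell on 2 levels, 9 at 9.56 or below and 8 at 10.75 or above, and the call for Rpl29 (1.01 ± 0.42, limma adjusted p = 0.0437) was lost on leaving out any 1 of several mice. In Ndufa7 the lowest naive mouse (replicate 4) was at 11.54 and the others at 11.76 to 11.81 (ratio 0.809), and all were below the epileptic range.

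For Timp1, naive replicate 3 was highest at 7.36, with the others at 6.85 to 7.01 (ratio 0.684). The same mouse was highest for the thalamic marker Tcf7l2, at 8.38 against 7.59 to 7.88 (ratio 0.635), for the level of neighbouring region genes, at 0.17 against -0.09 to 0.008 (ratio 0.634), and for the level of glucocorticoid-induced genes, at 0.34 against -0.07 to -0.06 (ratio 0.976). S100a6 was highest in naive replicate 6, at 8.34 against 8.04 to 8.15 (ratio 0.633), and Scn3b lowest in naive replicate 2, at 9.11 against 9.33 to 9.46 (ratio 0.639); both genes still separated all epileptic from all naive mice.

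Among list levels, interneuron genes were highest in naive replicate 5, at 0.09 against -0.04 to -0.001 (ratio 0.715). Naive replicate 1 was lowest for clock genes, at -0.09 against -0.005 to 0.05 (ratio 0.63), and for lysosomal genes, at -0.06 against -0.001 to 0.03 (ratio 0.652). In each of these 3 lists all epileptic mice lay outside the naive range.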

How the results depend on the processing

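The counts of genes higher and lower stayed within 1.5 times of the reported 2232 and 2619 except with the other scalings: median scaling gave 1291 higher, of which 197 by at least 1.5-fold, and 701 lower by at least 1.5-fold, and 75th percentile scaling gave 3849 higher. Leaving out 1 mouse gave 2057 to 2271 higher, 2434 to 2637 lower, 364 to 408 higher by 1.5-fold and 313 to 337 lower by 1.5-fold. The model with a replicate block called 1920 higher and 2211 lower, 393 and 343 by 1.5-fold; same-numbered naive and epileptic mice deviated together with correlations from -0.181 to 0.243, so the numbers were not taken as pairs. Under that block the calls of Vgf (-0.16, adjusted p = 0.648), Dusp1, Dusp6, Mbp, Rpl29, S100a8 and Zfp365 were lost. The runs as a block gave 2330 higher and 2755 lower. No named gene reversed. Of 135 named genes past the threshold, 107 passed in every alternative in which they had a value. With the single runs and the model with 2 groups set aside, the number was 120. In the later run alone, with 3 naive mice, the calls of Aqp4, Bgn, Casp1, Casp9, Ccl12, Cspg4, Cx3cr1, Dusp1, Fkbp5 and Gadd45a were lost. So were those of H2-Ab1, Ifit3, Mbp, Npy, Pdyn, Ppp1r1b, Prkcd, Ptgds, Rpl29, Serpina3n, Slc1a2, Timp1 and Zfp365. In the earlier run alone the calls of Ccl12, Gabrb1, Kl, Mbp, Npy, Prkcd, S100a8, Timp1, Vgf and Zfp365 were lost. Of 34 lists with a median of at least 0.1 in size, 1 changed sign in any alternative, that of T cells, neutrophils and red cells (-0.078 with the stricter filter). The causes were not tested. Genes near background are compressed, so their fold changes are understated.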

Other observations

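Several of the genes with the highest and lowest fold changes belong to no group described above. Rida, a deaminase that removes reactive imines, ran from 9.36 to 9.80 in the naive mice (median 9.63) and from 10.61 to 11.42 in the epileptic mice (median 11.06), a log2 fold change of 1.42 ± 0.12 (limma, adjusted p = 5.63e-14), and 2 other probes of the gene both gave 1.33. Pdlim4, an actin-associated LIM protein, was higher by 1.41 ± 0.22 (adjusted p = 4.7e-07). Parm1, a mucin-like membrane protein, was lower by 1.26 ± 0.16 (adjusted p = 2.3e-09), with -0.95 on another probe. None of these overlapped between the groups.

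Zfp365, a zinc finger protein, had the lowest fold change past the threshold (-1.75 ± 0.69, adjusted p = 0.0312), but its values stood on 2 levels, at 7.21 or below and at 10.34 or above, with no mouse between. Of the naive mice 2 were on the lower level and 4 on the upper, and of the epileptic mice 14 and 3. The call was lost without naive replicate 2, 3, 5 or 6.

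Of 21 cholesterol synthesis genes 2 were higher and 1 lower (median -0.04), against 7 lower with median scaling (median -0.11) and 3 higher and 2 lower with 75th percentile scaling (median 0.03), and their level spread from -0.29 to 0.25 in the epileptic mice, against -0.05 to 0.06 in the naive mice. Of the epileptic mice 7 were above the naive range and 7 below. Of 30 growth factors and secreted synaptic proteins 5 were higher and 10 lower (11 lower and none higher with median scaling, 9 and 9 with 75th percentile scaling), and of 21 genes of neurotransmitter and adenosine metabolism 9 were higher and 5 lower (4 and 6 with median scaling), where 22.6% of all genes were higher and 26.5% lower. Matches to the STAT motif TTCNNNGAA stood in 6 of 23 promoters of the reactive astrocyte list (26.1%; 8.3% of all promoters), 4 of them of genes called higher, and matches to the ETS motif CCGGAAG in 25 of 61 promoters of mitochondrial ribosomal proteins (41%; 8.86% of all promoters and 18% of those of tested genes), 19 of them of genes called higher.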
